A study of Mus musculus with 18 samples.

Results

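Salt and water cross the intestinal epithelium in both directions, and 9 genes that carry this traffic were followed in mouse small intestinal organoids treated with adrenergic agonists. They were taken by name from a deposited table of 55487 genes. The chloride channel Cftr, the basolateral Na-K-2Cl cotransporter Slc12a2 and the basolateral potassium channel genes Kcnq1, Kcne3 and Kcnn4 serve secretion. The apical exchangers Slc26a3, Slc26a6 and Slc9a3 serve absorption. Atp1b1, a subunit of the sodium pump, serves both. All 9 were expressed well enough to be tested, among 15247 genes that were.

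In the secreting cell, Slc12a2 loads chloride from the blood side, potassium leaves again through basolateral channels, and chloride flows into the lumen through Cftr, which opens when cAMP-dependent kinase phosphorylates it. In the absorbing cell, Slc9a3 takes up sodium in exchange for protons while Slc26a3 and Slc26a6 take up chloride in exchange for bicarbonate or other anions. Secretion is strongest in crypts and absorption in villi. The α2-adrenergic receptors couple to inhibitory G proteins, which lower cAMP.

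Organoids are cultures grown from intestinal crypts, in which stem cells give rise to the differentiated epithelial cell types without nerves, vessels or immune cells around them. These came from the small intestine of female wild-type C57BL/6 mice. RNA was sequenced after 4 days with 1 μM norepinephrine (5 libraries) or with its vehicle, HCl (4 libraries), and after 4 days with 1 μM UK14304, an agonist of α2-adrenergic receptors (5 libraries), or with its vehicle, DMSO (4 libraries). Replicates carry the numbers 1 to 5 in the sample labels, and number 5 has no vehicle library. No label says whether a number stands for an animal or a culture, so the p-values measure the spread between these libraries.

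Counted reads came to 21.87 to 27.85 M per library. Levels are given as CPM, the count divided by the TMM-normalized library size, and the libraries of an agonist were set against those of its vehicle by edgeR's quasi-likelihood test with the replicate number as a block. A gene passed at a Benjamini-Hochberg adjusted p under 0.05 over the 15247 genes. The libraries were epithelial. The 5 epithelial marker genes summed to 5412 to 5969 CPM, while 5 fibroblast markers together reached at most 0.346 CPM, 5 immune markers 6.56 CPM and 3 endothelial markers 0.991 CPM. The library norepinephrine replicate 4 stood apart in one respect. Its log2 CPM increased with the GC content of the gene by 0.195 for every 10 percentage points, where the other 4 norepinephrine libraries had slopes of -0.146 to -0.070. UK14304 replicate 4 had the steepest slope in the other direction, -0.222, and the 8 vehicle libraries ranged from -0.038 to 0.121.

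None of the 9 genes passed in either comparison. With norepinephrine 0 of 9 passed, where 0.105% of all genes tested did, and with UK14304 0 of 9 passed, where 1.22% did. DESeq2 also called 0 of 9 in each. Cftr, Slc12a2 and Slc26a3 had the largest differences, all higher with both agonists, by 10.1% to 11.7% with norepinephrine and 14.0% to 14.7% with UK14304. The other 6 lay within 6.6% of their vehicle. Before adjustment, p was under 0.05 for 2 of 9 genes with norepinephrine, against 8.4% of all genes, and for 3 of 9 with UK14304, against 14.8%. The median log2 fold change of the 9 was 0.02 with norepinephrine and 0.06 with UK14304, beside -0.01 and 0.00 over all genes. The tissue was measured in bulk, so fewer cells of a type and less RNA per cell cannot be told apart.

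**Figure D1:**
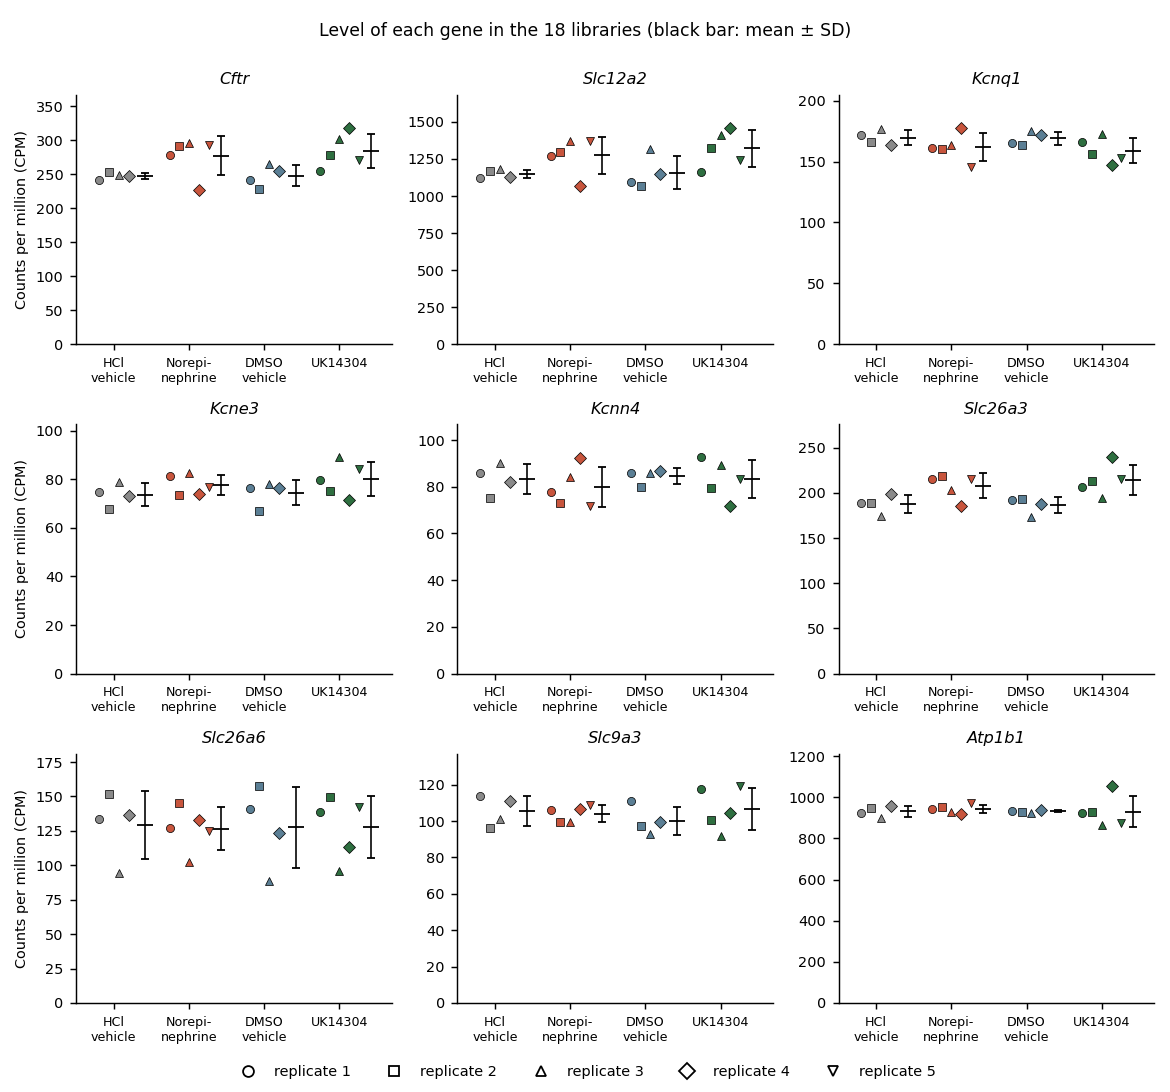
CPM of each of the 9 genes in the 18 libraries, with 1 panel per gene, the 4 groups along the horizontal axis and the vertical axis starting at 0. Symbols show the replicate number and black bars the group mean ± SD. Cftr, Slc12a2 and Slc26a3 are higher in the agonist groups with norepinephrine replicate 4 (diamond) below its group, and the 4 replicate 3 libraries (triangles) of Slc26a6 lie at 88.7 to 102.2 CPM, below all others.

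Cftr is the chloride exit of the crypt cell (GRCm38, chromosome 6, 18170687 to 18322768, plus strand). It was measured at 242, 253, 249 and 247 CPM in HCl vehicle replicates 1 to 4. Norepinephrine replicates 1 to 5 gave 278, 292, 296, 227 and 293 CPM. Of the 5 libraries, 4 lay above every HCl vehicle library and replicate 4 lay below them all. DMSO vehicle replicates 1 to 4 gave 242, 229, 265 and 255 CPM, and UK14304 replicates 1 to 5 gave 255, 278, 301, 318 and 271 CPM. These groups overlapped only in part, with the lowest UK14304 library within the DMSO range. The log2 fold change was 0.16 (SE 0.0728, 95% interval 0.01 to 0.31, adjusted p = 0.589 by edgeR) with norepinephrine and 0.20 (SE 0.0723, 0.05 to 0.35, adjusted p = 0.216) with UK14304. Paired by number, Cftr was higher in 3 of 4 replicates with norepinephrine and in 4 of 4 with UK14304.

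Slc12a2, also called NKCC1, brings in the chloride that Cftr lets out (chromosome 18, 57878678 to 57946821, plus strand). HCl vehicle libraries held 1123, 1166, 1182 and 1131 CPM and norepinephrine libraries 1269, 1300, 1369, 1066 and 1371 CPM. As with Cftr, replicate 4 was the only norepinephrine library below the vehicle range. DMSO vehicle libraries held 1094, 1071, 1318 and 1149 CPM and UK14304 libraries 1161, 1323, 1415, 1462 and 1245 CPM. Here DMSO replicate 3 stood within the UK14304 range and the groups overlapped. The log2 fold change was 0.14 (SE 0.0691, adjusted p = 0.593) with norepinephrine and 0.19 (SE 0.0686, adjusted p = 0.213) with UK14304, again higher in 3 of 4 and 4 of 4 replicates by number.

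Cftr and Slc12a2 varied together. With the group means taken out, their log2 CPM had a Pearson r of 0.95 over the 18 libraries (Spearman 0.93, and 0.91 without the 2 libraries farthest from the median). Both also followed the slope on GC content that each library showed over all genes, Cftr with r = -0.96 and Slc12a2 with r = -0.93 (-0.92 for each without the 2 farthest). Their transcripts are the poorest in GC of the 9, at 41.2% and 44.2%. After the trend on GC was removed from each library, r between Cftr and Slc12a2 was 0.72. These are descriptions of 18 libraries that share replicate numbers and scaling, and the part of GC content in the agonist differences was not tested.

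**Figure D2:**
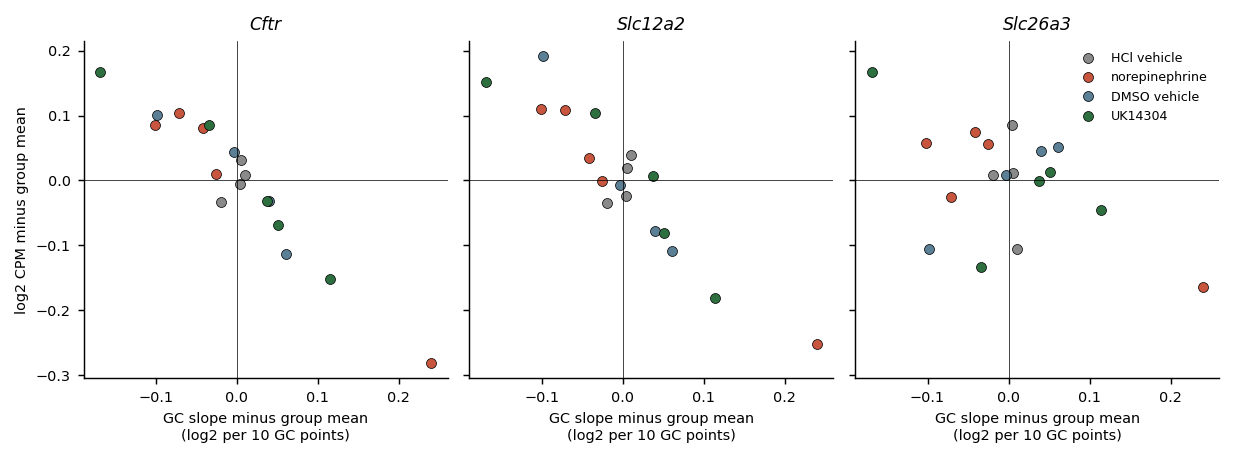
log2 CPM of Cftr, Slc12a2 and Slc26a3 minus the group mean (vertical) against the slope of log2 CPM on GC content of the same library minus the group mean (horizontal, log2 per 10 GC points), 1 point per library. Cftr and Slc12a2 descend along the axis (r = -0.96 and -0.93), while Slc26a3 scatters (r = -0.47), with norepinephrine replicate 4 at the far right of each panel.

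Potassium recycling keeps the driving force for chloride exit. Kcnq1 is the pore of the cAMP-activated basolateral channel (chromosome 7, 143106362 to 143427042, plus strand). Its level was 172, 166, 177 and 164 CPM in HCl vehicle and 161, 160, 164, 178 and 146 CPM with norepinephrine. DMSO vehicle libraries gave 165, 164, 175 and 172 CPM and UK14304 libraries 166, 156, 173, 147 and 153 CPM. Both pairs of groups overlapped, with log2 fold changes of -0.05 (95% interval -0.14 to 0.05) and -0.06 (-0.16 to 0.03). It was lower in 3 of 4 replicates by number in each comparison. The exception with norepinephrine was replicate 4, at 0.12, where Cftr and Slc12a2 were lower at -0.12 and -0.09.

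Kcne3 encodes the small subunit that holds Kcnq1 open in this epithelium (chromosome 7, 100176502 to 100184869, plus strand). HCl vehicle libraries gave 74.9, 67.6, 79.1 and 73.0 CPM and norepinephrine libraries 81.3, 73.4, 82.8, 73.8 and 76.8 CPM. DMSO vehicle libraries gave 76.6, 67.0, 78.1 and 76.3 CPM and UK14304 libraries 79.6, 75.2, 89.2, 71.5 and 84.3 CPM. The groups overlapped, and the log2 fold changes were 0.07 (-0.03 to 0.16) and 0.09 (0.00 to 0.19). Kcne3 was higher in 4 of 4 replicates with norepinephrine and in 3 of 4 with UK14304.

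Kcnn4, the calcium-activated potassium channel (chromosome 7, 24370263 to 24386690, plus strand), gave 86.1, 75.3, 90.2 and 82.2 CPM in HCl vehicle and 77.8, 73.2, 84.0, 92.3 and 71.6 CPM with norepinephrine. DMSO vehicle libraries gave 86.1, 79.8, 85.7 and 86.9 CPM and UK14304 libraries 92.8, 79.4, 89.2, 71.8 and 83.1 CPM. The agonist groups reached both above and below their vehicles. The log2 fold changes were -0.05 (-0.19 to 0.10) and 0.00 (-0.15 to 0.14). Kcnn4 and Kcnq1 varied together over the 18 libraries with r = 0.86, and with r = 0.51 once the GC trend was removed.

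On the absorbing side, Slc26a3 exchanges luminal chloride for bicarbonate (chromosome 12, 31390871 to 31473917, plus strand). HCl vehicle libraries gave 189, 189, 174 and 199 CPM and norepinephrine libraries 216, 218, 204, 185 and 216 CPM. Of the norepinephrine libraries 4 were above the whole vehicle range and replicate 4 was within it. DMSO vehicle libraries gave 192, 193, 173 and 187 CPM and UK14304 libraries 207, 214, 195, 240 and 216 CPM. These groups did not overlap, and Slc26a3 was the only one of the 9 genes of which this held. Of all tested genes 3.51% had UK14304 and DMSO groups that did not overlap, and 1.42% had norepinephrine and HCl groups that did not. The log2 fold change was 0.14 (SE 0.0538, 95% interval 0.03 to 0.25, adjusted p = 0.560) with norepinephrine and 0.19 (SE 0.0536, 0.08 to 0.30, adjusted p = 0.102) with UK14304. Its level was higher in 3 of 4 and in 4 of 4 replicates by number.

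The bases before the starts of Cftr and Slc26a3 are shown because these are the channel and the exchanger with the largest differences, one for each direction of chloride transport. They are the 250 bases upstream of the RefSeq start (GRCm38.p6), on the plus strand. The Slc26a3 window lies inside the span given above for the counted gene, which begins further upstream, at 31390871. Capitals mark matches, on either strand, to any of 5 motifs searched in these windows.
Cftr, chr6:18170437-18170686: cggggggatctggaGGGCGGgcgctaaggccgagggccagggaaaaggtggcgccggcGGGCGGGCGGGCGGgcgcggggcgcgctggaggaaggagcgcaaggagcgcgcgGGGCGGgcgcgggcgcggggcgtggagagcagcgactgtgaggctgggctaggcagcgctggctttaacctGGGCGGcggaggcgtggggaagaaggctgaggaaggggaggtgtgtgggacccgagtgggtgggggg
Slc26a3, chr12:31437969-31438218: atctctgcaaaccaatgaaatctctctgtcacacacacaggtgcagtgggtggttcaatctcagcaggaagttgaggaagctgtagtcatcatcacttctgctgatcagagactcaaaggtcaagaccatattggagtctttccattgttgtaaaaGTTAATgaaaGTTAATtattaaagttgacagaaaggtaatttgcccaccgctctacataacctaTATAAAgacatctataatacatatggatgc
The window of Cftr had a GC content of 76.4%, higher than 97.0% of 32851 RefSeq promoters, and that of Slc26a3 38.8%, higher than 9.7%. In Cftr the capitals are 6 matches, some overlapping, to the GC box GGGCGG, which 32.7% of all promoters hold. In Slc26a3 they are 1 TATA box (TATAAA, in 12.4% of promoters) and 2 half-sites of the HNF1 motif (GTTAAT, in 6.43%), which lie close together. The cAMP response element TGACGTCA (1.55% of promoters) and its half-site TGACG (17.8%) had no match in the windows of the 7 members with an entry, which were Cftr, Kcne3, Kcnn4, Slc26a3, Slc26a6, Slc9a3 and Atp1b1. A match describes these letters only, and binding was not measured.

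Slc26a6, the second apical anion exchanger (chromosome 9, 108853283 to 108913049, plus strand), differed more between replicate numbers than between treatments. Replicate 3 gave 94.2 CPM in HCl vehicle, 102.2 with norepinephrine, 88.7 in DMSO vehicle and 95.9 with UK14304. The other 14 libraries lay between 114 and 157 CPM, and none of them overlapped with replicate 3. Of the 9 genes it was the only one whose replicate 3 libraries stood apart from all others. The remaining HCl vehicle libraries held 134, 152 and 137 CPM beside 127, 145, 133 and 125 CPM with norepinephrine. The remaining DMSO vehicle libraries held 141, 157 and 123 CPM beside 139, 149, 114 and 142 CPM with UK14304. Within a replicate number the log2 ratio of agonist to vehicle ran from -0.07 to 0.12 with norepinephrine and from -0.12 to 0.11 with UK14304. The fitted log2 fold changes were -0.04 (-0.16 to 0.09) and -0.01 (-0.13 to 0.12). The SE with norepinephrine was 0.0588 with the replicate block and 0.175 without it.

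Slc9a3, the sodium-proton exchanger NHE3 (chromosome 13, 74121457 to 74169442, plus strand), gave 114, 96.2, 101 and 111 CPM in HCl vehicle and 106, 99.3, 99.3, 107 and 109 CPM with norepinephrine. DMSO vehicle libraries gave 111, 97.3, 92.7 and 99.6 CPM and UK14304 libraries 118, 100, 91.9, 104 and 119 CPM. The groups overlapped. The log2 fold changes were -0.05 (-0.14 to 0.04) and 0.06 (-0.03 to 0.15), and among the 9 genes it had the largest difference between the 2 agonist effects, 0.11 (-0.02 to 0.23, adjusted p = 1.00 by edgeR). Among the 9 it also had the largest difference between vehicles, 0.08 for HCl against DMSO. Its means were 106 and 100 CPM in HCl and DMSO vehicle, and 104 and 107 CPM with norepinephrine and UK14304.

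Atp1b1, the β1 subunit that carries the sodium pump to the basolateral membrane (chromosome 1, 164437109 to 164458355, minus strand), was the steadiest. HCl vehicle libraries gave 926, 949, 899 and 957 CPM and norepinephrine libraries 945, 953, 930 (replicate 3), 918 and 974 CPM. DMSO vehicle libraries spanned only 926 to 937 CPM. UK14304 libraries gave 924, 931, 864, 1054 and 877 CPM, with replicate 4 above and replicates 1, 3 and 5 below every DMSO library. The log2 fold changes were 0.02 (-0.07 to 0.11) and 0.00 (-0.09 to 0.09). Its coefficient of variation over the 18 libraries was 4.27%, beside 5.78% to 16.4% for the other 8 genes.

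Per kilobase of exon, the order of levels in the 8 vehicle libraries was led by Atp1b1 at 302.5 ± 5.65 CPM per kb (SD, n = 8) and Slc12a2 at 106 ± 6.92. Kcne3 (41.6 ± 2.56) and Kcnq1 (41.4 ± 1.29) followed and did not differ beyond their spread. Cftr (31.9 ± 1.40), Slc26a3 (29.4 ± 1.42) and Slc26a6 (23.7 ± 4.65) came next, and the ranges of neighbours among them overlapped. Slc9a3 (18.7 ± 1.47) and Kcnn4 (16.4 ± 0.923) were lowest, and their ranges met as well. Atp1b1 stood higher than 99.4% of the tested genes and Kcnn4 higher than 78.0% on this scale.

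**Figure D3:**
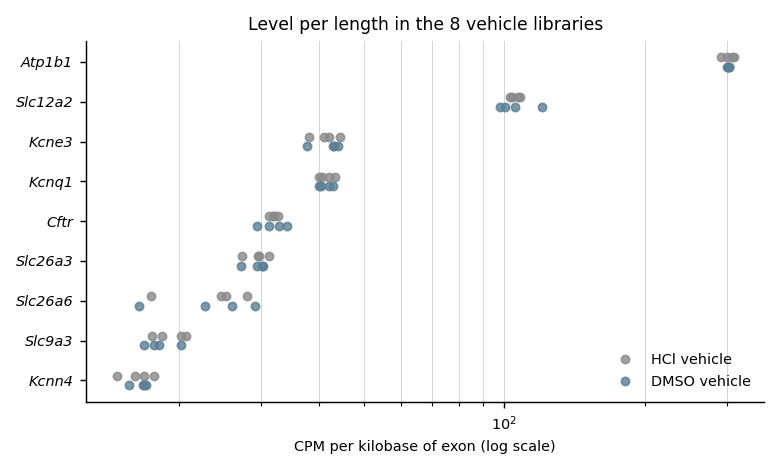
Level of each gene per kilobase of exon in the 8 vehicle libraries, on a log scale, with HCl vehicle in grey and DMSO vehicle in blue, 1 point per library. Atp1b1 and Slc12a2 stand apart from the rest, Kcne3 lies on Kcnq1, and the points of Slc26a6 are the most spread.

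The HCl and DMSO vehicles were compared as the background of both agonist comparisons. Of the 9 genes 0 passed, and 0% of all genes did (277 genes had an unadjusted p under 0.05 in edgeR, and DESeq2 called 22 genes with the replicate block and 0 without it). The log2 differences of the 9, HCl against DMSO, ran from -0.02 to 0.08. The difference between the UK14304 and the norepinephrine effect passed for 0 of 9 genes and for 0% of all genes (405 genes had an unadjusted p under 0.05 in edgeR, and DESeq2 called 23 genes with the replicate block and 0 without it). It ran from -0.02 to 0.11, and its 95% interval was -0.17 to 0.25 for Cftr, -0.15 to 0.25 for Slc12a2 and -0.10 to 0.21 for Slc26a3, so that differences of these sizes were not detectable here.

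Leaving out norepinephrine replicate 4 changed the calls for Cftr, Slc12a2 and Slc26a3. Without it, all of them passed with norepinephrine, at log2 fold changes of 0.27 (adjusted p = 0.00141 by edgeR), 0.24 (0.00960) and 0.22 (0.00130), but so did 2529 of all genes in place of 16. The same omission let them pass with UK14304 at 0.22, 0.20 and 0.20 (adjusted p of 0.00287, 0.0204 and 0.000650), with 1225 genes in place of 186, in a model in which all libraries share one estimate of the spread. Without UK14304 replicate 4 the UK14304 values were 0.12, 0.11 and 0.13, and none passed (adjusted p of 0.521, 0.505 and 0.226). With every library kept and no filter on low counts, they passed with UK14304 (0.20, 0.19 and 0.19, adjusted p of 0.00174, 4.41e-05 and 0.00620), and Cftr and Slc12a2 passed with norepinephrine (0.17 and 0.15, adjusted p of 0.0420 and 0.00812). That fit called 627 of all genes with UK14304 in place of 186, and 153 with norepinephrine in place of 16. The SE of Slc12a2 with UK14304 was 0.0359 in it, beside 0.0686 with the filter.

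**Figure D4:**
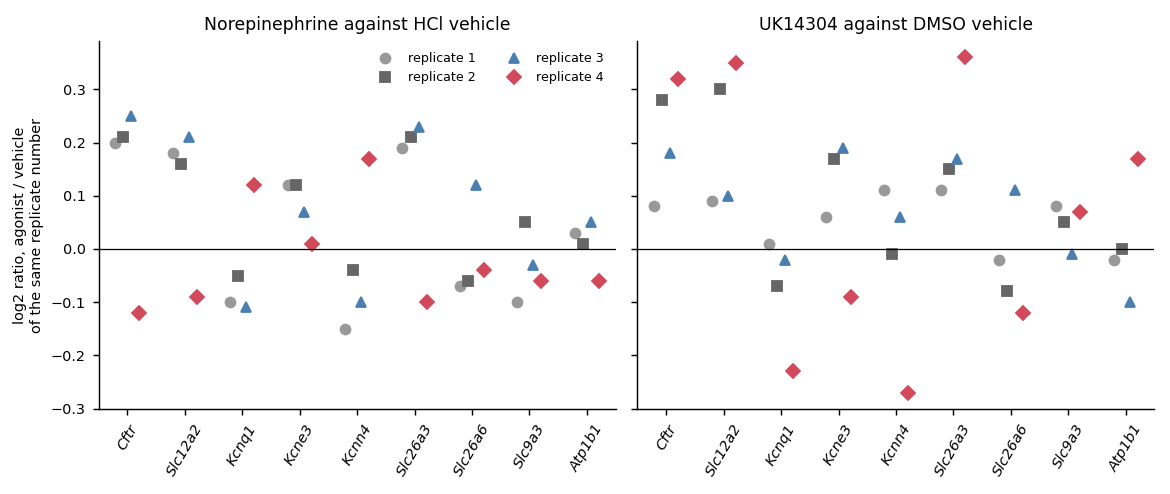
log2 ratio of agonist to vehicle CPM within each replicate number (vertical) for the 9 genes (horizontal), with norepinephrine on the left and UK14304 on the right, 1 symbol per replicate. Replicate 4 (diamond) is at -0.12 for Cftr and 0.12 for Kcnq1 on the left and at 0.32 and -0.23 on the right, opposite to its own values in the other panel.

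With the trend on GC content removed from each library, Cftr, Slc12a2 and Slc26a3 rose with UK14304, by 0.11 (SE 0.0292, adjusted p = 0.0226 by edgeR), 0.14 (SE 0.0361, adjusted p = 0.0298) and 0.14 (SE 0.0324, adjusted p = 0.00942) on the log2 scale. That is 3 of 9 genes in a fit in which 1.42% of all genes were called higher. The same fit without the replicate block gave 0.11, 0.14 and 0.15, and none of them passed (adjusted p of 0.241, 0.324 and 0.291). With the block, all of them passed without replicate 4 or 5, only Slc26a3 passed without replicate 1 (adjusted p of 0.0583, 0.0687 and 0.0383) or replicate 2 (0.228, 0.316 and 0.0444), and none passed without replicate 3 (0.183, 0.0774 and 0.0596). The SE of Cftr was 0.0723 before the trend was removed. With norepinephrine 0 of 9 passed in that fit, at 0.08, 0.09 and 0.10 for these genes (adjusted p of 0.437, 0.437 and 0.357). Kcnq1 and Kcnn4 lay between -0.01 and 0.03 in both comparisons. The 3 genes also passed with UK14304 when only the UK14304 and DMSO libraries were in the model (0.23, 0.22 and 0.20), and did not when the ribosomal RNA share of each library was a covariate (0.13, 0.14 and 0.16, adjusted p of 0.662, 0.637 and 0.408). That share, read from CT010467.1, was 1.83% to 3.06% in 7 libraries, of which 3 were DMSO vehicle and 1 was UK14304, and 0.313% to 0.619% in the other 11.

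**Figure D5:**
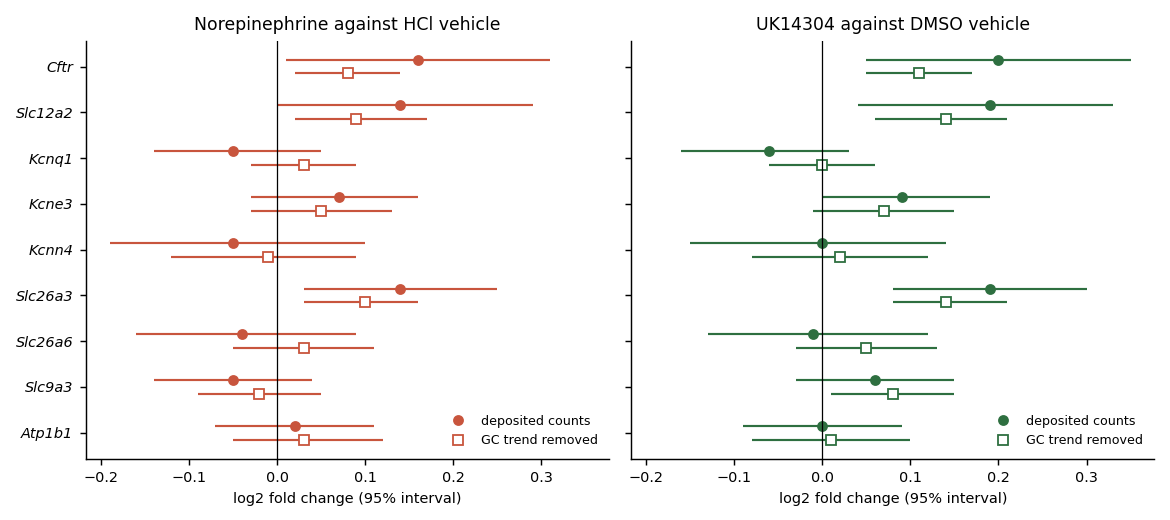
log2 fold change of the 9 genes (horizontal, with 95% intervals) for norepinephrine against HCl vehicle (left) and UK14304 against DMSO vehicle (right), from the deposited counts (filled circles) and with the GC trend removed from each library (open squares). The intervals of Cftr and Slc12a2 narrow and shift towards 0 when the trend is removed, and those of Cftr, Slc12a2 and Slc26a3 with UK14304 stay above 0.

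Other genes of the pathway were read from 9 lists that hold 81 genes, of which 61 were tested. With norepinephrine 0 of 61 rose and 0 fell. With UK14304 0 rose and 2 fell, where 1.04% of all genes were called lower, and the median log2 fold change was -0.01 in each comparison. The genes that fell were P2ry2, a nucleotide receptor that triggers calcium-dependent secretion, and Car9, a membrane-bound carbonic anhydrase. P2ry2 averaged 15.8 ± 1.07 CPM (SD, n = 4) with DMSO and 11.4 ± 1.51 CPM (n = 5) with UK14304, and the ranges of 14.3 to 16.8 and 10.01 to 13.9 did not overlap. Its log2 fold change was -0.46 (SE 0.0886, adjusted p = 0.0109 by edgeR) with UK14304 and -0.24 (adjusted p = 0.556) with norepinephrine. Car9 averaged 317 ± 66.4 and 270 ± 45.4 CPM, with ranges that overlapped, and was lower in 4 of 4 replicates by number (-0.21, SE 0.0502, adjusted p = 0.0409). With the GC trend removed, both passed with the replicate block (adjusted p of 0.000464 for P2ry2 and 0.00298 for Car9 by edgeR). Without the block neither passed in that fit (0.0800 and 0.720).

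Among other channels and the secretory loading machinery 0 genes passed. The list of chloride channels had 7 of 8 genes tested, with the largest differences, averaged without regard to sign, in the calcium-activated chloride channel Ano1 (-0.13 with norepinephrine and 0.15 with UK14304) and Clca1, a secreted goblet cell product long listed with chloride channels (-0.10 and -0.07). In the list of basolateral loading all 6 genes were tested, among them the bicarbonate cotransporter Slc4a7 (0.12 and 0.05). Other potassium channels had 4 of 7 genes tested, and Kcnma1 (-0.14 and -0.20) and Kcnk6 (-0.11 and -0.14) had the largest values. With the GC trend removed Slc4a4, the basolateral sodium-bicarbonate cotransporter, fell with UK14304 by 0.11 (adjusted p = 0.0389, and 0.785 without the replicate block).

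Apical absorption showed 0 calls in 6 tested genes of 10. The sodium-glucose cotransporter Slc5a1 had -0.05 with norepinephrine and -0.14 with UK14304 (adjusted p = 0.101), and it fell by 0.15 with the GC trend removed (adjusted p = 0.0116, and 0.584 without the block). The exchanger Slc9a2 had -0.11 in both comparisons. The anion exchanger Slc26a4 had 0.23 and -0.41 at a mean of only 0.433 CPM. In the sodium pump list, with 3 of 8 genes tested, the β3 subunit Atp1b3 had 0.05 and 0.11. All 13 genes of scaffolds and kinases were tested and 0 passed. Sgk1, a kinase that promotes sodium transport, had 0.14 and 0.33 (adjusted p = 0.0687 with UK14304) and rose with UK14304 once the GC trend was removed (0.33, adjusted p = 0.0219, and 0.567 without the block). The scaffold Pdzd3 had -0.07 and -0.19.

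Of the secretagogue list 9 of 12 genes were tested, and P2ry2 was the only call. The guanylate cyclase C ligand Guca2a had -0.21 and -0.20, and Vipr1, the receptor for vasoactive intestinal peptide, had 0.01 and 0.12 and rose by 0.17 with UK14304 with the GC trend removed (adjusted p = 0.000579, and 0.322 without the block). In the carbonic anhydrase list, with 7 of 10 tested, Car2 had -0.20 and -0.31 (adjusted p of 0.616 and 0.251), and Car15 had 0.28 and -0.43 at a mean of only 0.544 CPM. Water channels had 6 of 7 tested and 0 calls, with Aqp8 at 0.16 and -0.09 and Aqp1 at -0.08 and -0.15.

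Markers of other epithelial cell types were read beside these genes. Paneth cell markers fell in 2 of 5 genes with norepinephrine and in 3 of 5 with UK14304, among them the lysozyme gene Lyz1 (-0.37 and -0.31, adjusted p of 0.00190 and 0.00310). Their summed level ran from 2334 to 3574 CPM in HCl vehicle, 1906 to 2666 with norepinephrine, 2227 to 3443 in DMSO vehicle and 1941 to 2890 with UK14304. Without the replicate block 0 of all tested genes passed with norepinephrine. Of 4 goblet cell markers only Agr2 passed, and it was lower with UK14304 (-0.16, adjusted p = 0.0324 by edgeR). With UK14304 Tff3 was at -0.23, Muc2 at 0.11 and Clca3a1 at 0.15, and none of these passed. With the GC trend removed and the block kept, Lyz1, Defa22, Ang4 and Agr2 passed with UK14304 (adjusted p of 0.00123, 0.00311, 0.033 and 0.00157 by edgeR). Without the block none of them passed in that fit (0.543, 0.582, 0.565 and 0.112). On the deposited counts, with the block, none of 4 enterocyte, 5 stem cell, 5 proliferation, 5 enteroendocrine or 2 tested tuft cell markers passed in either comparison. The stem cell list leaves out Slc12a2, which is among the 9 genes here and which the study uses as a stem cell marker. In the fit with the GC trend removed, in which 3 of the 9 genes rose with UK14304, so did 2 of the 5 proliferation markers, Mki67 (0.14, adjusted p = 0.0162) and Top2a (0.10, adjusted p = 0.0373), which mark dividing cells. Without the replicate block neither passed in that fit (adjusted p of 0.260 and 0.387). With the GC trend removed and the block kept, Pcna was at -0.12, Ccna2 at 0.03 and Mcm5 at 0.00 with UK14304, and none of these passed. The 5 proliferation markers summed to 1729 to 1866 CPM in DMSO vehicle and 1868 to 2103 CPM with UK14304, adjoining ranges that did not overlap. Of all tested genes, taken singly, 3.51% had UK14304 and DMSO groups that did not overlap. The sum was 1720 to 1970 CPM in HCl vehicle and 1781 to 2018 CPM with norepinephrine. Those ranges overlapped each other and the UK14304 range. In this sum Mki67 and Top2a weighed most, at means of 809 and 596 CPM over the 18 libraries. Pcna, Ccna2 and Mcm5 were at 124, 186 and 173 CPM. Summed levels overlapped between groups for enterocytes (6005 to 9024 CPM with UK14304 and 6748 to 10670 in DMSO vehicle) and for stem cells (3497 to 5429 and 2862 to 5016). All 4 enterocyte markers were lower with UK14304 (-0.28 to -0.08 on the log2 scale), and they ran from -0.16 to 0.00 with norepinephrine. In the stem cell sum Olfm4 weighed most, at a mean of 3609 CPM over the 18 libraries, beside 201 CPM or less for the others. The part of cell composition in the values of the 9 genes was not tested.

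With the group means taken out, some of the 9 genes varied together over the 18 libraries and others against each other. Kcnq1 and Slc26a3 ran opposite to each other (r = -0.88, and -0.79 with the GC trend removed), as did Kcnn4 and Slc26a3 (-0.81 and -0.64). Slc26a3 ran with Atp1b1 (0.75 and 0.55). It ran with Slc26a6 at 0.47, and at 0.85 with the GC trend removed. For each gene the most similar of all tested genes was named. Cftr was nearest to Ppip5k2 (r = 0.981), Slc12a2 to Ctdspl2 (0.984) and Slc26a6 to Smpdl3b (0.985). For these genes 337, 308 and 215 genes had an r over 0.9, so that the nearest is 1 of many. Kcnn4 was nearest to Cdk4 (0.950), Slc26a3 to Bche (0.952), Kcnq1 to Nans (0.942), Kcne3 to Spats2 (0.912), Slc9a3 to Acot11 (0.960) and Atp1b1 to Pls1 (0.901). With the GC trend removed the value stayed at 0.98 for Slc26a6 and Smpdl3b and was 0.81 for Cftr and Ppip5k2. These are descriptions over libraries that share replicate numbers, depth and scaling.

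Exons of Atp1b1 share 575 bases (18.7% of its length) with Nme7 on the other strand, and counting did not use strand and dropped reads over several genes. Cftr shares 129 bases with Gm15592, Kcnq1 121 with Kcnq1ot1 and Kcne3 9 with Gm34821, all on the other strand. The other 5 genes share no exon with another gene, and none of the 9 has another transcript that matches it over 50 bases or more at 95% identity.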

How the data were processed

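Libraries were made from polyadenylated RNA (KAPA mRNA HyperPrep) and sequenced as 50 bp single reads. The authors mapped the reads with STAR 2.7.3 to GRCm38 and deposited raw read counts per gene, over merged exons, with Subread 1.6.4 in the submitters' processing notes and featureCounts 2.0.1 in the file header. The deposited counts were not normalized. All 18 columns were matched to samples by name, and 0 were left unused.

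The counts were normalized by TMM, filtered by group with filterByExpr and fitted by the robust quasi-likelihood method in edgeR 4.0.16 under R 4.3.3. One model held the 4 groups and the replicate number as a block. The numbers were used to pair the libraries, though no label says what they stand for. Deviations from the group means, over all tested genes, correlated at 0.119 to 0.431 in the 4 norepinephrine pairs and 0.155 to 0.52 in the 4 UK14304 pairs, and each agonist library correlated best with the vehicle library of its own number. Pairs of replicates 1 and 4 were weaker, at 0.119 to 0.231, than those of replicates 2 and 3, at 0.42 to 0.52. GC content came from GENCODE M21 transcripts (15229 tested genes), and its lowess trend (span 0.3) was removed as an offset. log2 CPM used a prior count of 2. Near copies were searched with blastn 2.17.0. The fit was tested on simulated data.

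The alternatives were RLE size factors, no filter on low counts, at least 10 counts in every sample, DESeq2 1.42.0 with and without the block, no block, GC removal, the ribosomal RNA share as a covariate, only an agonist and its own vehicle, and leaving out each library and each replicate number. GC removal without the block, and with each replicate number left out, was chosen after seeing the data. All 9 genes are named. From the pathway lists, every gene that passed is named, with the 2 tested genes of largest absolute log2 fold change, averaged over both comparisons, in each list, and the gene most like each of the 9. Genes that passed only with the GC trend removed were named after their values were seen. The genes and lists were chosen with earlier results of these data known. Values of some listed genes are not reported here.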

Additional observations from a re-analysis of the deposited data

Results flagged for a closer look

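In 36 sets of values, each of 1 gene in 1 group, a library was compared with the others of its group, and chance puts about 1 set in 20 past the limit used. A library stood apart in 3 sets. Cftr in norepinephrine replicate 4 was 227 CPM, where the other 4 libraries lay between 278 and 296 CPM, and the gap was 0.732 of the whole range. The slope of that library on GC content was 0.195, the highest of the 18. DMSO vehicle replicate 2 was low for the potassium channel genes Kcne3 and Kcnn4 at once, but did not stand apart for Kcnq1. Kcne3 was at 67.05 CPM beside 76.3 to 78.1 CPM in the other 3 libraries, and Kcnn4 at 79.81 CPM beside 85.7 to 86.9 CPM. Replicate 2 was also the lowest HCl vehicle library for both genes, at 67.6 and 75.3 CPM. It was the lowest norepinephrine library for Kcne3 (73.4 CPM) but not for Kcnn4. With UK14304, replicate 4 was the lowest for both.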

How the results depend on the processing

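Over 38 alternatives in each agonist comparison, Cftr, Slc12a2 and Slc26a3 kept their direction, passing under 3, 4 and 3 of them with norepinephrine and under 7, 6 and 9 with UK14304. The cause of the changes below was not tested. Without the replicate block, 0 of 9 genes passed with either agonist, and the genes called fell from 16 to 0 with norepinephrine and from 186 to 6 with UK14304. DESeq2 without the block called 0 and 44 genes. On the deposited counts the block changed no call among the 9. With the GC trend removed, 31 genes were called with norepinephrine and 626 with UK14304 (3 of the 9 with UK14304), and without the block 0 and 20, with 0 of the 9, so that there the block decided all 3 calls. With no filter on low counts, 153 genes were called with norepinephrine (2 of the 9) and 627 with UK14304 (3 of the 9), and 24 for the difference between agonists and 17 between vehicles. DESeq2 with the block called 79 genes with norepinephrine, 23 for the difference and 22 between vehicles. A minimum of 10 counts in every sample called 1 gene for the difference. For UK14304 the ribosomal RNA covariate left 88 genes, and its own vehicle alone 525 (3 of the 9).

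Leaving out a library or a replicate number gave 4 to 2529 genes and 0 to 3 of the 9 with norepinephrine, 23 to 1225 genes and 0 to 4 of the 9 with UK14304, and 0 to 12 genes for the difference. The highest counts in the agonist comparisons came without norepinephrine replicate 4 and the highest for the difference without all of replicate 4. With the GC trend removed as well, norepinephrine called 492 genes without replicate 4 and 26 without replicate 5, and UK14304 called 375, 712 and 600 without replicates 1, 4 and 5. Of the 9, the UK14304 comparison then called 1, 1, 0, 4 and 3 without replicates 1 to 5. Kcne3 passed with UK14304 only without replicate 4 (0.15, adjusted p = 0.0225 by edgeR, and 0.13, adjusted p = 0.0193, with the GC trend removed as well).

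Values near 0 changed sign. With norepinephrine, GC removal with and without the block took Kcnq1 to 0.03 and 0.01 and Slc26a6 to 0.03 and 0.04, and without the block Slc9a3 to 0.01. With UK14304, Slc26a6 became 0.05 and 0.07 under GC removal with and without the block, 0.01 with DESeq2 without the block and 0.02 with the ribosomal RNA covariate, which also took the difference between agonists for Cftr to -0.03. With 1 library or number left out, log2 fold changes ranged from -0.09 to 0.05 (Kcnq1), -0.11 to 0.01 (Kcnn4) and -0.07 to 0.07 (Slc26a6) with norepinephrine, and from -0.08 to 0.02 (Kcnq1) and -0.04 to 0.07 (Slc26a6) with UK14304. The difference between agonists ranged from -0.06 to 0.08 for Cftr, -0.05 to 0.10 for Slc12a2 and -0.06 to 0.09 for Slc26a3, which was -0.02 without replicate 4 and with the GC trend removed.

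By counting, precision was lowest for Kcne3 and Kcnn4, with 1480 and 1595 counts in their lowest libraries.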
